A study of Homo sapiens with 3 samples.

Results

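The mRNAs of 10 secreted signalling proteins were followed: the chemokines IL8 (now CXCL8), CXCL1, CXCL2, CXCL3 and CCL2, the colony-stimulating factors CSF2 and CSF1, and the cytokines LIF, IL6 and IL11. These 10 genes were taken by name from the 57820 genes of the deposited tables. They were chosen by name with their Flag over IgG ratios in these same libraries already known, so those ratios are a description here and test nothing. All 10 were found once in each table, annotated as protein-coding, and all 10 reached the minimum of 20 counts over both libraries that 10811 genes reached.

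The RNA came from ACHN, an established line of human renal cell carcinoma, in which Flag-tagged MEX3A, a protein that binds RNA, was stably overexpressed. The labels name 3 samples: an anti-Flag precipitate, an IgG precipitate as the background of the method, and input RNA, each with 1 library. All 3 samples carry MEX3A-Flag, and whether the line is 1 clone or a pool is not given in the sources used here. The protocol describes fixation with 0.3% formaldehyde, a stop with 0.125 M glycine, capture with 5 µg of anti-Flag antibody on protein G beads and selection of mRNA on oligo(dT), and the same text stands with the IgG sample. The Flag and IgG libraries were compared. Input RNA was not analysed here; a level below is the level in a precipitate and not in the cell.

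Chemokines are small secreted proteins that attract leukocytes by binding to receptors coupled to G proteins. IL8, CXCL1, CXCL2 and CXCL3 carry the ELR motif and attract mainly neutrophils through CXCR2, and CCL2 attracts monocytes through CCR2. CSF2 and CSF1 support granulocytes and macrophages, and IL6, LIF and IL11 signal through receptors that share the chain gp130. Many of these genes are induced by NF-kappa-B, and many of their mRNAs carry AU-rich elements, are short-lived and are bound by proteins that control their decay. MEX3A binds mRNA through KH domains.

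Counts summed to 5498124 in the Flag library and to 3412864 in the IgG library. Mitochondrially encoded RNAs filled 33.0% of Flag counts and 8.93% of IgG counts, and the 10 most abundant genes 42.8% and 52.8%, which moves every ratio set on total counts. MEX3A's own mRNA had 103 Flag counts and 5 IgG counts, but both libraries come from the overexpressing line. Of 11 renal epithelial markers found, 10 reached the minimum, with PAX8 at 312.1 TPM in the Flag library and 222.1 TPM in the IgG library. PAX2, LHX1, EPCAM and CDH2 also had a higher TPM in the Flag library. KRT8 (87.3 Flag and 115.8 IgG TPM), KRT18 (45.8 and 69.5), HAVCR1 (24.1 and 36.3), VIM (263.5 and 279.8) and CDH1 (2.10 and 4.46) had a lower one. CA9 had 0 counts in both libraries. Of 10 leukocyte markers 8 had 0 counts in both libraries, among them the defining marker PTPRC, and the list summed to 11.2 TPM in the Flag library and 14.3 TPM in the IgG library. These sums came from CD68 (10.21 Flag and 3.47 IgG TPM) and ITGAM (0.97 and 10.85). The 4 endothelial markers found summed to 0.19 TPM in the Flag and 0 in the IgG library. The fibroblast markers summed to 58.2 TPM in the Flag library and 81.2 TPM in the IgG library, nearly all from COL1A1, and 4 of 6 were at 0 in both.

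Together the 10 cytokine mRNAs made up 0.281% of Flag counts (15447 counts, exact 95% binomial interval 0.277% to 0.285%) and 0.0348% of IgG counts (1188 counts, 0.0329% to 0.0368%). All 10 had a higher CPM, the count scaled to a common library total, in the Flag library. A gene was called enriched where the exact 95% counting interval of its ratio, Flag CPM over IgG CPM, lay wholly above 2. On this rule 8 were enriched and 0 depleted, where 28.7% of all genes tested were enriched and 1.32% depleted; the choice of the genes used this contrast, so nothing is read from that difference. CXCL3, CCL2 and IL11 reached the minimum only through their Flag counts. The median log2 ratio of the 10 was 3.27, beside 0.95 over all genes tested. With 1 library in each group no difference has a replicate check, and intervals cover counting error only.

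**Figure D1:**
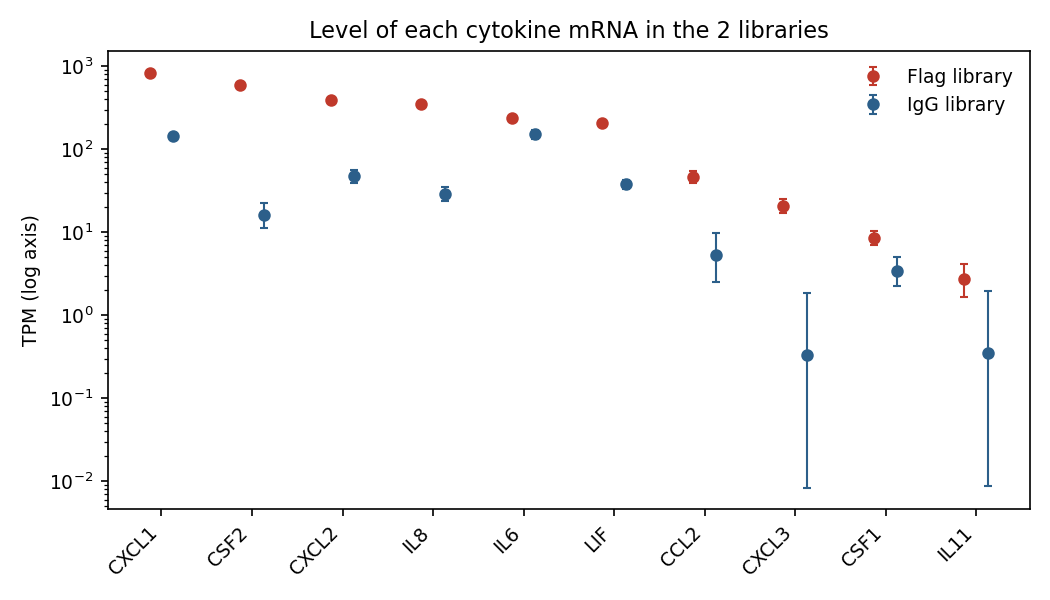
Level of each cytokine mRNA in TPM, abundance per transcript length (log axis), in the Flag library (red, left of each pair) and the IgG library (blue); bars are exact 95% Poisson intervals of the count carried to TPM. CXCL1 was the most abundant in the Flag library at 834.2 TPM and IL6 in the IgG library at 151.8 TPM, and the bars of CXCL3 and IL11 in the IgG library rest on 1 count each.

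TPM values, which are scaled by transcript length, allow the genes to be set against each other. In the Flag library CXCL1 was highest, followed by CSF2, CXCL2, IL8, IL6, LIF, CCL2, CXCL3, CSF1 and IL11. The counting intervals of neighbours in that order did not overlap for any of the 9 pairs. These intervals do not cover the estimated length by which TPM divides. For LIF that length was 3969 bases in the Flag and 2383 bases in the IgG library, so its place in the order is less sure. In the IgG library the order was IL6, CXCL1, CXCL2, LIF, IL8, CSF2, CCL2, CSF1, IL11 and CXCL3. There the intervals overlapped between IL6 and CXCL1, between CXCL2 and LIF, between LIF and IL8, between CCL2 and CSF1 and between IL11 and CXCL3, so these neighbours were not separated beyond counting error.

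IL8 (ENSG00000169429), CXCL1 (ENSG00000163739), CXCL3 (ENSG00000163734) and CXCL2 (ENSG00000081041) lie in 1 chemokine cluster on chromosome 4. The bases before their starts are shown because these 4 are the cytokine genes that lie together, and 3 of them are close copies of each other. Each line gives bases -100 to -26 from the gene's start on the gene's own strand, 5′ to 3′, from RefSeq on GRCh38.p14, another build than that of the counts. The windows are chr4:73869293-73869367 on the plus strand for CXCL1, chr4:74099221-74099295 on the minus strand for CXCL2, chr4:74038715-74038789 on the minus strand for CXCL3 and chr4:73740469-73740543 on the plus strand for CXCL8. Capitals mark GGAATTTCC, the longest run of bases that all 4 windows share, which resembles sites of NF-kappa-B.
CXCL1: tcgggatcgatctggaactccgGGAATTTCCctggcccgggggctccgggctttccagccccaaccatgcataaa
CXCL2: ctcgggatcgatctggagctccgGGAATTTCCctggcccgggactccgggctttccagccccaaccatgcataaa
CXCL3: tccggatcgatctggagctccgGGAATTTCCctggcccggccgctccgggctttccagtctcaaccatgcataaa
CXCL8: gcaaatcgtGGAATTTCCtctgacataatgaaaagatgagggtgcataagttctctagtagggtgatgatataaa

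Promoter sequences were matched for 7 of the 10 genes: those 4, IL6, IL11 and CSF2. Over the 250 bases before the start, CXCL1 and CXCL3 were identical at 81.4% of aligned positions, CXCL2 and CXCL3 at 73.3% and CXCL1 and CXCL2 at 70.4%, against 42.0% to 45.4% for CXCL8 with each of them. On either strand, GGAATTTCC was found in those 250 bases of 4 of the 7 genes, the 4 it was taken from, and in 0.413% of the 35116 windows of that length. The run was read from these genes' own sequences, so its presence in them is a description. It lies before the start and not in the mRNA that was precipitated.

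Among the ELR chemokines, IL8 had 2286 counts (350.9 TPM) in the Flag library and 98 counts (29.0 TPM) in the IgG library. IL8 encodes interleukin 8, the chief neutrophil attractant of human tissue. In CPM the ratio was 14.5 (11.8 to 17.9), a larger ratio than that of 97.5% of all genes tested. CXCL2 had 1862 counts (387.4 TPM) in the Flag library and 116 counts (47.4 TPM) in the IgG library, a ratio of 9.96 (8.26 to 12.1).

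CXCL1 was the most abundant of the 10 in the Flag library, with 3924 counts (834.2 TPM), and had 355 counts (143.1 TPM) in the IgG library. It ranked 47th by TPM among all genes of the Flag library and 176th in the IgG library. Its ratio of 6.86 (6.15 to 7.67) was the lowest of the ELR chemokines. CXCL3 stood apart in level, with 102 counts (20.8 TPM) in the Flag library and 1 count (0.33 TPM) in the IgG library, a ratio of 63.3 whose interval, 11.1 to 2525, shows how little 1 count fixes.

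CXCL1, CXCL2 and CXCL3 are near-identical paralogs between which reads can be divided. Their expected counts were whole in both libraries, within 0.005, as were those of 9 of the 10 genes; LIF, at 4286.99 Flag counts, was the other. Summed, the 3 paralogs stood at 5888 Flag and 472 IgG counts, with a ratio of 7.74 (7.05 to 8.52). The other genes of the cluster were nearly absent: CXCL6, PF4V1, PF4 and PPBP were at 0 in both (a count of 0 allows up to 0.546 CPM for Flag and 0.879 CPM for IgG), and CXCL5 had 3 Flag counts and 0 IgG counts. Within the cluster, counts therefore came almost wholly from 4 of 9 genes.

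CCL2 (ENSG00000108691, chromosome 17), the monocyte attractant, had 143 counts (46.4 TPM) in the Flag library and 10 counts (5.26 TPM) in the IgG library. Its ratio was 8.88 (4.69 to 18.9). Its neighbour CCL7, another monocyte attractant, had 0 counts in both libraries.

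CSF2 and CSF1 differed widely. CSF2 (ENSG00000164400, chromosome 5), which encodes the granulocyte-macrophage factor GM-CSF, had 1986 counts (599.0 TPM) in the Flag library and 33 counts (16.1 TPM) in the IgG library. It ranked 63rd by TPM in the Flag library and 1904th in the IgG library. Its ratio of 37.4 (26.5 to 54.4) had the highest lower bound of the 10 and the 14th highest of all genes tested.

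CSF1 (ENSG00000184371, chromosome 1), which encodes the macrophage factor M-CSF, had 122 counts (8.57 TPM) in the Flag library and 26 counts (3.46 TPM) in the IgG library. Its ratio of 2.91 had a lower bound of 1.90, just under the threshold of 2, so it was not called. IL3, the cytokine gene beside CSF2, had 0 counts in both libraries.

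The 3 cytokines of the gp130 group also differed. LIF (ENSG00000128342, chromosome 22), known for keeping mouse embryonic stem cells undifferentiated, had 4287 counts (204.2 TPM) in the Flag library and 285 counts (37.7 TPM) in the IgG library. That was the largest count of the 10 in the Flag library, and the CPM ratio was 9.34 (8.28 to 10.6). IL11 (ENSG00000095752, chromosome 19) had 21 counts (2.71 TPM) in the Flag library and 1 count (0.35 TPM) in the IgG library. Its ratio of 13.04 had an interval of 2.10 to 539.1, so the call rests on a lower bound near 2. It reached the minimum of counts only through the Flag library, and its call was lost with TMM (7.60), median-of-ratios (7.54) and reduced totals (10.4), at 4-fold and with a 99% interval.

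IL6 (ENSG00000136244, chromosome 7), the inducer of the acute-phase response, was the exception among the abundant genes. It had 714 counts (236.2 TPM) in the Flag library and 263 counts (151.8 TPM) in the IgG library, where it was the highest of the 10. Its ratio of 1.69 (1.46 to 1.95) was not called and lay below the median of all genes tested, 1.93. The direction depends on the scaling: TMM gave 0.983 and the median of ratios 0.975. It was the lowest of the 10 ratios, and 44.1% of all genes tested had a lower one.

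**Figure D2:**
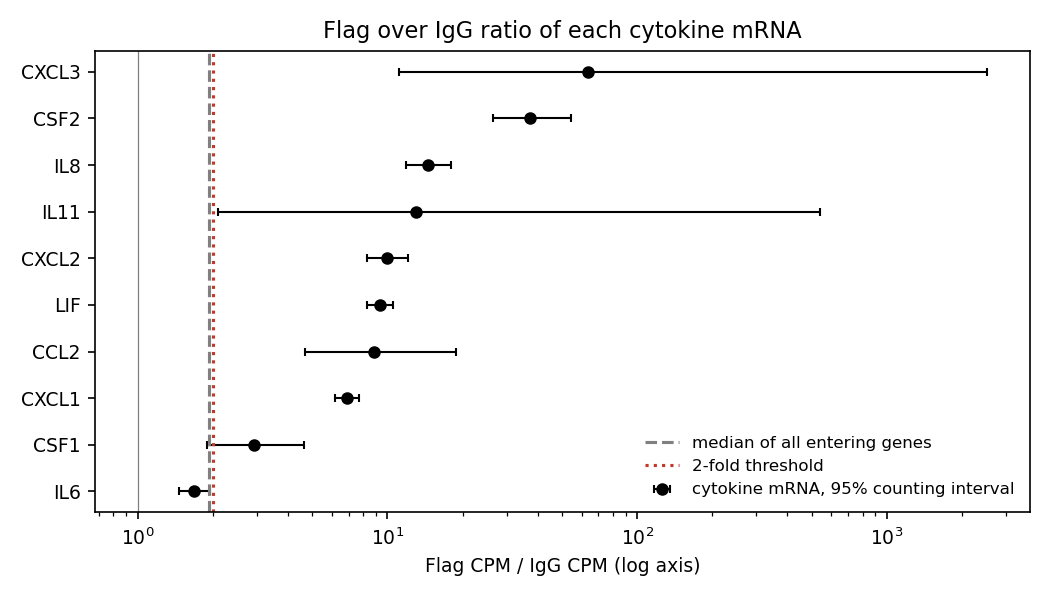
Flag CPM over IgG CPM for each cytokine mRNA (log axis) with its exact 95% counting interval; the dashed line is the median of all entering genes and the dotted line the 2-fold threshold. The interval of IL6, 1.46 to 1.95, lies below 2 and that of CSF1 crosses it, while CXCL3 and IL11, with 1 IgG count each, have the widest intervals, reaching 2525 and 539.1.

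The make-up of the 10 mRNAs is given for each library as a description of these same counts, with no test. The ratio of CSF2 was 22.2 times that of IL6, a quotient that a scaling of the libraries does not move. Of their summed TPM, 2690 in the Flag and 434.4 in the IgG library, CSF2 took 22.3% in the Flag and 3.72% in the IgG library. IL6 took 8.78% in the Flag and 34.9% in the IgG library. CXCL1 held a similar share of both, 31.0% in the Flag and 32.9% in the IgG library, and IL8 held 13.04% in the Flag and 6.67% in the IgG library.

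**Figure D3:**
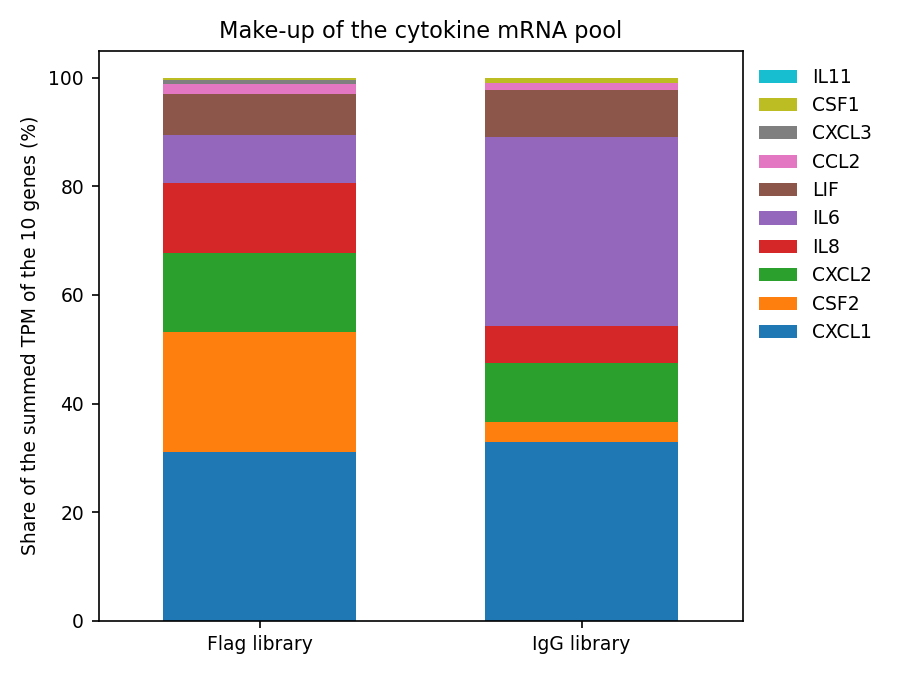
Share of the summed TPM of the 10 cytokine mRNAs taken by each, in percent, in the Flag library (left bar) and the IgG library (right bar). CSF2 holds 22.3% of the Flag bar and 3.72% of the IgG bar, and IL6 holds 8.78% and 34.9%.

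**Figure D4:**
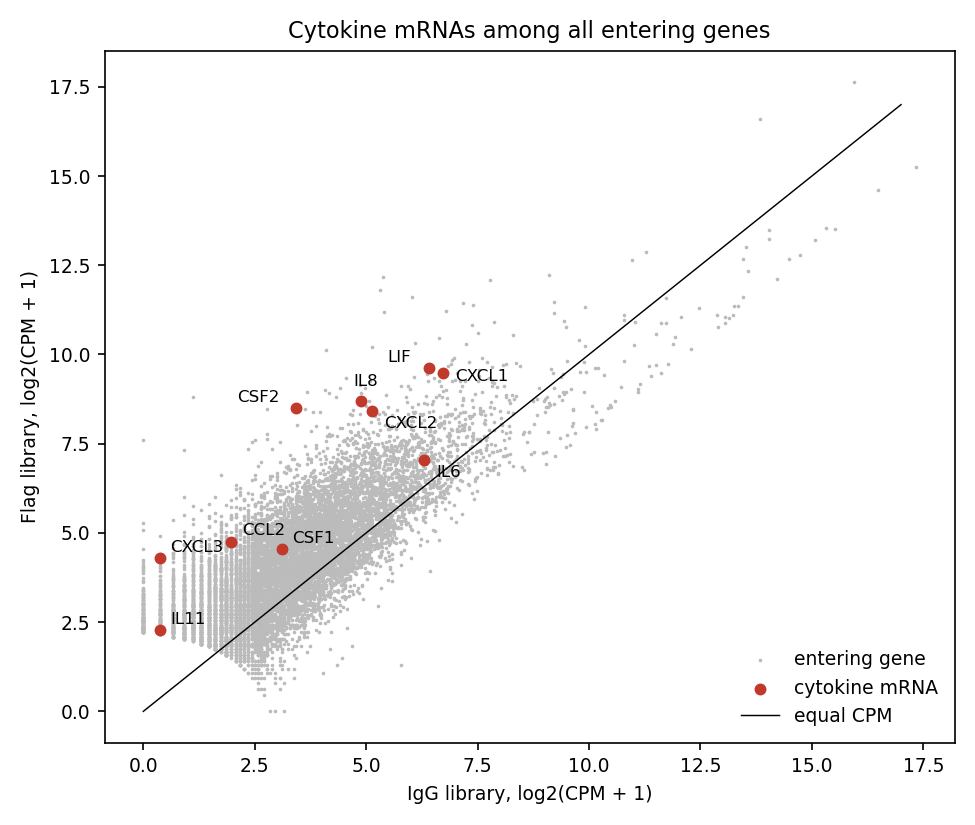
Level of every entering gene (grey) and of the 10 cytokine mRNAs (red) as log2(CPM + 1), with the IgG library on the horizontal and the Flag library on the vertical axis; the line marks equal CPM. The cloud itself lies mostly above the line, with a median log2 ratio of 0.95. CSF2 lies near its upper edge, with a larger ratio than 99.6% of all genes tested. IL8, CXCL2, LIF and CXCL1 lie in its upper part, with larger ratios than 97.5% (IL8) to 90.6% (CXCL1) of them. IL6 lies inside it, at 44.1%.

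The protein-coding genes most like CSF2 and IL8 were found by Euclidean distance in log2(CPM + 1) over the 2 libraries. Nearest to CSF2 were SOCS3, COPS7A and DEGS1, at distances of 0.22, 0.40 and 0.48. SOCS3, which encodes an inhibitor of gp130 signalling, stood at 1956 Flag and 39 IgG counts, with a ratio of 31.1 (22.7 to 43.9). Nearest to IL8 were ATXN1L, AAMP and TINAGL1, at distances of 0.07, 0.17 and 0.17, with ratios of 13.5, 12.2 and 12.7. Likeness over 2 libraries says only that these genes had similar levels in both.

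The deposited tables also give each gene's length in each library, the mean length of its transcripts weighted by their estimated abundance. It was more than 1% longer in the Flag library for 7 of the 10 and within 1% for CSF2, CCL2 and CXCL3. Over all genes tested the median ratio of lengths was 1, with quartiles of 0.909 and 1.26, and 47.6% were more than 1% longer in the Flag library. The largest difference was that of LIF, at 3969 bases in the Flag library and 2383 bases in the IgG library, followed by IL11, at 1583 bases in the Flag library and 1028 bases in the IgG library. With TPM, which divides by length, and nothing added, the ratio of LIF was 5.42 and that of CSF2, at 783 bases in both libraries, 37.1. IL11 had 7.74 on that scale, 6.24 with 0.1 added and 2.75 with 1 added, and its IgG length rests on 1 count. Whether fragment sizes or the assignment of reads to transcripts moved these lengths was not tested.

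The remaining genes of the pathway were read from 7 lists, of which 74 genes reached the minimum of counts. In all 31 of the 74 were enriched and 0 depleted, where 28.7% of all genes tested were enriched. A gene with 0 IgG counts that reaches the minimum is always called, since its lower bound is at least 3.06; this held for 168 genes, among them CCL20 and TNFSF10 of these lists. Without them 29 of 72 were enriched, beside 27.5% of the other 10643 genes. The lists were chosen with earlier results of these data known, so nothing is read from either difference. Most other chemokines were not detected: of 43, 36 had 0 counts in both libraries and 3 reached the minimum. CCL28, an epithelial chemokine, stood at 59 Flag and 2 IgG counts, with a ratio of 18.3 (4.85 to 154.7), and was enriched. CCL20, which attracts CCR6-bearing cells, stood at 28 Flag and 0 IgG counts. Its exact interval, which needs no floor, began at 4.41, and the fold against a floor of 3 IgG counts was 5.79. CX3CL1, with 64 Flag counts and 25 IgG counts, was not called, at 1.59 by counts and 0.862 in TPM with 0.1 added.

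Of 50 other interleukins and growth factors of blood cells, 35 had 0 counts in both libraries, 6 reached the minimum and 2 were enriched (2 with TMM scaling). Over all genes tested 28.7% were enriched (12% with TMM). IL32, a cytokine without a mouse counterpart, stood at 1240 Flag and 83 IgG counts, with a ratio of 9.27 (7.42 to 11.7). CLCF1, another gp130 cytokine, stood at 343 Flag and 24 IgG counts, with a ratio of 8.87 (5.86 to 14.0). IL18 (2.97), EBI3 (2.76), KITLG (2.51) and IL15 (2.23) were not called, although IL18 (2.81) and EBI3 (2.68) were past 2 in TPM with 0.1 added and IL15 was at 1.24. IL1A had 3 Flag counts and 0 IgG counts.

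Of 18 TNF ligands, 6 reached the minimum and 3 were enriched (3 with TMM scaling), where 28.7% of all genes tested were enriched (12% with TMM). TNFSF12, which encodes TWEAK, stood at 441 Flag and 11 IgG counts, with a ratio of 24.9 (13.8 to 50.2) by counts and 15.3 in TPM with 0.1 added, and CD70 stood at 483 Flag and 24 IgG counts, with a ratio of 12.5 (8.30 to 19.7). TNFSF10, which encodes TRAIL, stood at 23 Flag and 0 IgG counts, with an exact interval from 3.57 and a fold of 4.76 against the floor of 3 IgG counts. LTB (1.00), TNFSF9 (1.49) and TNFSF13 (1.29) were not called, and LTB was at 0.911 in TPM with 0.1 added. TNF itself had 11 Flag counts and 0 IgG counts, too few to enter.

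Of 14 genes found for receptors of the 10 proteins and related chains, OSMR being a related chain, 7 had 0 counts in both libraries. The minimum was reached by 4, and 2 of these were enriched, where 28.7% of all genes tested were enriched (12% with TMM). Those that entered were the chains of the gp130 group. IL6ST, which encodes gp130, stood at 895 Flag and 66 IgG counts, with a ratio of 8.42 (6.55 to 10.98), and LIFR stood at 48 Flag and 6 IgG counts, with a ratio of 4.97 (2.12 to 14.2); both were enriched, 1 of them with TMM scaling. OSMR (2.37, 1.71 to 3.32) and IL6R (1.94, 1.09 to 3.65) were not called. In TPM with 0.1 added OSMR was past the threshold at 2.11 and IL6R turned to 0.757.

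Of the 19 JAK, STAT, SOCS and PIAS genes that entered, 7 were enriched (3 with TMM scaling), with a median log2 ratio of 1.41, where the median of all genes tested was 0.95 and 28.7% were enriched (12% with TMM). SOCS3 had the highest lower bound, followed by STAT6, at 4.89 (4.42 to 5.42), and STAT5B, at 5.49 (4.01 to 7.68), whose counts were fractional and may be shared with its paralog STAT5A. PIAS3 (0.763, 0.477 to 1.23), TYK2 (1.11, 0.821 to 1.52) and PIAS4 (0.931, 0.540 to 1.63) had the lowest upper bounds, and PIAS4 was at 0.345 in TPM with 0.1 added, past the threshold of 0.5. STAT3, the main mediator of IL6 signals, was not called, at 1.71 (1.38 to 2.13).

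Signalling from IL-1, Toll-like and TNF receptors acts upstream of many of these cytokine genes. Of 22 genes of it, with adaptors, kinases, receptor chains and inhibitors among them, 8 were enriched (7 with TMM scaling). Over all genes tested 28.7% were enriched (12% with TMM). The median log2 ratio of the 22 was 1.28, beside 0.95 over all genes tested. The kinase gene IRAK2 stood at 841 Flag and 76 IgG counts, with a ratio of 6.87 (5.43 to 8.81). TAB3 (8.07, 4.77 to 14.7) and PELI1 (8.97, 4.58 to 20.05) came next by lower bound, although PELI1 was 2.84-fold higher with TPM. TNIP1 (0.804, 0.712 to 0.908), IRAK1 (0.858, 0.738 to 0.997) and TRADD (1.19, 0.784 to 1.83) had the lowest upper bounds, and TRADD was at 0.582 in TPM with 0.1 added.

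Of 14 genes whose proteins act on the decay or translation of cytokine mRNAs, 7 were enriched (2 with TMM scaling), with a median log2 ratio of 1.51, where the median of all genes tested was 0.95 and 28.7% were enriched (12% with TMM). KHSRP, which encodes a KH-domain protein that promotes decay of AU-rich mRNAs, stood at 12980 Flag and 375 IgG counts, with a ratio of 21.5 (19.4 to 23.9). AUH stood at 47 Flag and 1 IgG counts, with a ratio of 29.2 (4.99 to 1177) by counts and 14.9 in TPM with 0.1 added, and ZFP36L1 a ratio of 3.69 (3.35 to 4.08). ZC3H12A, which encodes the endonuclease Regnase-1, had a ratio of 1.27 (0.935 to 1.74), ELAVL1 of 1.41 (1.05 to 1.90) and HNRNPD of 1.69 (1.45 to 1.97), and none of the 3 was called. In TPM with 0.1 added ELAVL1 turned to 0.770 and HNRNPD was past the threshold at 2.29.

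The scale of the ratios depends on which genes fill each library. TMM scaling (edgeR) lowered every log2 ratio by 0.78, so that every ratio between 1 and 1.715 on total counts fell below 1. With it 7 of the 10 cytokine mRNAs were enriched, where 12% of all genes tested were enriched and 6.12% depleted. On that scale, of all genes called, 66.1% were enriched, against 95.6% with total counts. IL11 lost its call and IL6 had a ratio of 0.983 (0.852 to 1.14).

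Under the other settings the count of enriched cytokine mRNAs lay between 7 and 9, and 0 were depleted. Enriched were 7 with median-of-ratios scaling (11.7% of all genes tested enriched, 6.24% depleted), with totals that leave out mitochondrial and the most abundant genes (20.3% and 2.48%), at 4-fold (8.55% and 0.222%) and with a 99% interval (23.5% and 1.06%). With at least 100 counts, which IL11 did not reach, 7 of 9 were enriched (37.9% and 1.62%). Enriched were 8 without a filter (18.7% and 1.26%) and with 0.5 counts added (28.7% and 1.32%). Enriched were 9, CSF1 among them, at 1.5-fold (40% and 2.76%), with protein-coding genes only (40% and 0.736%), and past 2-fold in TPM with 1 added (37.7% and 4.96%) or 0.1 added (44.2% and 6.59%).

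**Figure D5:**
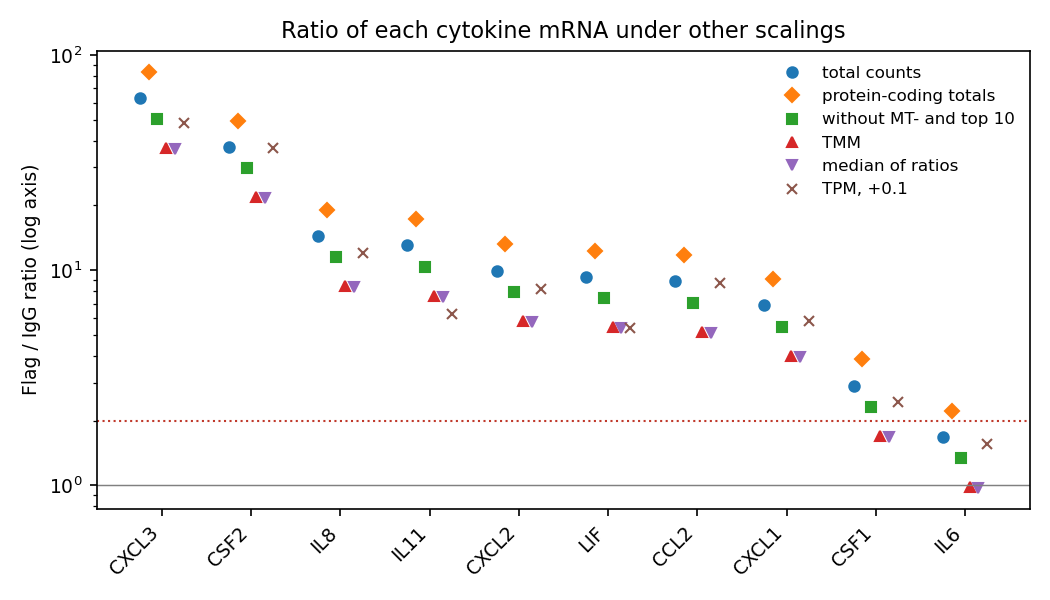
Flag over IgG ratio of each cytokine mRNA (log axis) on total counts and 5 other scales; the dotted line is 2-fold and the solid line a ratio of 1. With TMM or median-of-ratios scaling IL6 lies at a ratio just under 1, while the 8 leftmost genes stay above 2 on all 6 scales.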

How the data were processed

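The deposited expected counts are estimates of reads for each gene and carry no normalization; per the file headers their columns are those of RSEM gene output. TPM and FPKM values were deposited beside them by the authors, and FPKM was not used. The other deposited columns, transcript length and effective length in bases, follow the same layout per the file headers. The submitters' processing notes name RSEM, STAR, GRCh37 and hg19; no version or strand setting is given in the sources used here, so a gene and an antisense partner cannot be told apart.

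Expected counts were rounded, divided by each total to give CPM, and compared as a ratio with an exact 95% Clopper-Pearson interval (scipy 1.17.1) for genes with 20 counts over both libraries. Enriched means an interval wholly above 2, depleted wholly below 0.5. With TPM no interval was made, and the ratio alone was set against 2 and 0.5. A count of 0 was set to 3 counts. No molecular identifiers are recorded for the PCR reads, so copies of the same molecule may be counted as separate reads. Intervals take each read as independent and may then be too narrow. They cover counting error only. No p-value was computed. The procedure was tested on simulated counts drawn with counting error only. That is the error its interval assumes, so the run does not check it on these libraries. The 10 genes and all lists were chosen with earlier results of these data known. Named genes are the 10, up to 3 at each end of every list by interval bound, the 3 nearest to CSF2 and IL8, and genes beside the 10; others (STAT3, IL1A, TNF, CXCL5, IL15 and the markers) were chosen after their values were seen, as was the shared promoter run. List symbols not found were ACKR1, CCBP2, CD24 and PECAM1; DARC and ACKR2, the other symbols of ACKR1 and CCBP2, were found. Sequences (RefSeq, GRCh38.p14) were aligned with biopython 1.88. Alternatives were median-of-ratios (DESeq2 1.42.0) and TMM scaling (edgeR 4.0.16), reduced totals (no mitochondrial genes and none of the 10 most abundant of either library), protein-coding genes only, other count minimums, TPM, 0.5 counts added, other thresholds, a 99% interval and the 3 CXCL paralogs summed.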

Additional observations from a re-analysis of the deposited data

How the results depend on the processing

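Over 12 alternatives and the summed CXCL paralogs, 111 of 122 values of single cytokine mRNAs kept their direction and side of the threshold. Many of these could not change. Other count minimums leave each ratio and interval as they were. Other thresholds and the 99% interval leave the ratio, so no direction could turn there. The summed ratio of 7.74 stands for each of the 3 paralogs. CSF2, IL8, CXCL1, CXCL2, CXCL3, CCL2 and LIF were enriched under every alternative, with TPM by the ratio alone. IL11 lost its call with TMM (7.60), median-of-ratios (7.54) and reduced totals (10.4), at 4-fold and with a 99% interval. CSF1 was called at 1.5-fold and with protein-coding totals (3.85). In TPM the ratio of CSF1 was past 2 (2.15 and 2.44) with no interval, and lower than the 2.91 by counts that was not called. IL6 turned to 0.983 under TMM and to 0.975 under median-of-ratios scaling. The median log2 ratio of 3.27 became 2.49 with TMM, 2.48 with median-of-ratios scaling and 2.73 with TPM and 1 added. The 3100 enriched genes became 1293 with TMM, 1269 with median-of-ratios scaling and 924 at 4-fold. With TPM and 0.1 added 4780 genes had a ratio past 2, a count without the interval that the 3100 had to pass. The 143 depleted genes became 662 with TMM, 675 with median-of-ratios scaling, 268 with reduced totals and 218 without a filter. At 1.5-fold they became 298, at 4-fold 24 and with protein-coding genes only 75. With TPM and 1 or 0.1 added 536 and 712 genes had a ratio below 0.5, again without an interval. The 31 enriched genes of the 7 other lists became 20 with TMM, likewise 20 with median-of-ratios scaling, and 17 at 4-fold; of 84 counts of single lists 61 stayed within 1.5 times. A scaling moves all ratios alike, and the other causes were not tested. Depth limits CXCL3 and IL11 most, with 1 IgG count each. No paired analysis was possible because each group has 1 library.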

Other observations

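Genes beside the 10 cytokine genes on the chromosome, by the order of protein-coding genes in the RefSeq table, mostly had few counts. AHCYL1, beside CSF1, stood at 314 Flag and 70 IgG counts, with a ratio of 2.78 (2.14 to 3.66), close to the 2.91 (1.90 to 4.64) of CSF1, and was enriched. RASSF6, beside IL8, stood at 21 Flag and 0 IgG counts, with an exact interval from 3.23 and a fold of 4.35 against the floor of 3 IgG counts. P4HA2, beside CSF2, stood at 187 Flag and 56 IgG counts, with a ratio of 2.07 (1.53 to 2.85), and MTHFD2L, beside CXCL2, stood at 37 Flag and 10 IgG counts, with a ratio of 2.30 (1.12 to 5.18); neither was called. TOMM7, beside IL6, stood at 11 Flag and 13 IgG counts, with a ratio of 0.525 (0.213 to 1.27). OSM, the gp130 cytokine gene beside LIF, had 2 Flag counts and 0 IgG counts.

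Other genes that hold GGAATTTCC in the 250 bases before the start were counted as well. Of 43 such genes tested, 16 (37.2%) were enriched, with a median log2 ratio of 1.06. Over all genes tested 28.7% were enriched, with a median of 0.95. The run was taken from genes chosen with this contrast known, and this count was made on total counts only. Nothing is read from either difference.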
